A study of Homo sapiens with 23 samples.

Results

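The interferon-stimulated genes described here are 43 named genes, chosen from a fixed list of symbols that covers the signalling factors, sensors and antiviral effectors of the interferon response. All 43 were found in each of 3 count tables, which held 60683 genes for LNCaP, 58219 for LAPC4 and 54615 gene symbols for LNCaP under drug treatment. LNCaP and LAPC4 are established androgen-responsive human prostate cancer cell lines, and the study asked how the transcription factor ONECUT2 (OC2) changes their expression programme. The 23 RNA-seq libraries fell into 9 groups. LNCaP cells with OC2 overexpression (OC2 OE, 2 libraries) were set against LNCaP control (2 libraries), and LNCaP cells with a hairpin against OC2 (shOC2, 2 libraries) against a control hairpin (shCon, 2 libraries). LAPC4 cells with OC2 overexpression (3 libraries) were set against vector (Vec, 3 libraries). In the drug experiment LNCaP received 10 µM enzalutamide together with a 10 µM OC2 inhibitor (Combine, 3 libraries), 10 µM enzalutamide alone (Enza, 3 libraries) or vehicle (3 libraries), each for 7 days. The medium was RPMI-1640 with serum for LNCaP. LAPC4 grew in IMDM, with serum plus the synthetic androgen R1881 in every LAPC4 group. The sources used here do not say how OC2 was delivered, whether the lines were clones or whether replicates were separate cultures, so p-values measure the spread between these libraries, which may be technical. The OC2 inhibitor alone was not analysed here.

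Interferons are secreted proteins that bind receptors on the cell surface and activate the kinases JAK1, JAK2 and TYK2, which phosphorylate STAT proteins. STAT2 joins IRF9 and a partner STAT in the complex ISGF3, which binds the interferon-stimulated response element (ISRE) in promoters, while IRF1 and IRF7 bind related sites and can carry the response further. The induced genes encode sensors of foreign RNA and DNA, enzymes that degrade or modify nucleic acids, membrane proteins that block viral entry or release, and the ubiquitin-like protein ISG15 with its conjugating enzymes. In tumour cell lines many of these genes are expressed at a basal level without added interferon.

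Library totals were 20964025 to 23272088 counts in the LNCaP table, 28586064 to 30465978 in LAPC4 and 22615580 to 28241076 in the drug table. Marker genes of luminal prostate epithelium, such as KLK3 and KRT8, summed to between 2001 and 7042 CPM (counts scaled to a common library size) in every library of the genetic comparisons. The leukocyte marker CD3E was at or near 0 in every comparison, while summed leukocyte markers reached 25.8 CPM in shOC2 libraries, nearly all of it the lysosomal gene CD68. In bulk RNA, fewer cells of a type and less RNA per cell cannot be told apart. ONECUT2 itself had 315 and 288 CPM in LNCaP OC2 OE, against 23.5 and 29.4 CPM in control. It had 968, 805 and 913 CPM in LAPC4 OC2 OE, against 13.3, 17.1 and 16.1 CPM in Vec. In shOC2 it had 12.8 and 12.8 CPM, against 21.5 and 22.2 CPM in shCon. The first Enza library and the third Vec library stood apart from their group, and each result was recomputed without them.

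Levels can be compared between genes only per length, and on that scale (RPKM, counts scaled by library size and exon length) the members differed by group. In LAPC4, 20 of the 43 members averaged at least 1 RPKM in OC2 OE, against 8 in Vec. LNCaP OC2 OE had 15 such members, against 18 in control and 24 in shCon, and shOC2 had 23. Combine had 20 and Enza 29, against 21 in vehicle. IFITM3, a membrane protein that blocks fusion of viruses with endosomes, had the highest level in 6 of the 9 groups, at 77.2 ± 11.6 RPKM (SD, n = 2) in LNCaP control for example. ISG15 led in LNCaP OC2 OE at 63.2 ± 3.58 RPKM (SD, n = 2), LGALS3BP in LAPC4 OC2 OE at 32.8 ± 1.40 RPKM (SD, n = 3), and STAT2 in Vec at 16.6 ± 3.25 RPKM (SD, n = 3). Across all 9 groups MX2, XAF1 and SAMD9L were too low for a test in any single comparison.

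Several members lie side by side in the genome (GENCODE 29 on GRCh38), and neighbours did not always move alike, as described below each comparison. IFIT2, IFIT3, IFIT1 and IFIT5 occupy chr10:89283694-89421001, a stretch of 137 kb. OAS1, OAS3 and OAS2 occupy chr12:112906777-113011723, the 3 IFITM genes chr11:307631-327537, and IFI44L and IFI44 chr1:78619922-78664078. PARP9 and PARP14 lie at chr3:122527924-122730840, and CMPK2 and RSAD2 at chr2:6840570-6898239. IFITM1, IFITM2 and IFITM3 are related in sequence, and IFITM1 shares 32.5% of its exon bases with IFITM2. Reads may therefore have been split between them in an uncertain way. IRF9 shares 48.4% of its exon bases with the overlapping gene AL136295.5, and its values carry the same uncertainty.

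Promoter sequences are shown because the ISRE is the element through which ISGF3 acts, although not every member's window held its core. RefSeq promoter windows, from 250 bases before to 50 bases after the start on GRCh38.p14, matched 33 of the 43 members. An ISRE core, GAAANNGAAA on either strand, was present in 22 of the 33 members (66.7%), against 4.38% of 27305 genes with a window. The gamma-activated site core TTCNNNGAA was present in 10 of 33 members (30.3%), against 9.38% of all genes, and the ONECUT core, ATTGA followed by T or C, in 3 of 33 (9.1%), against 13.86% of all genes. No overlap between the motifs was removed. The stretches below cover the ISRE cores, in capitals, with 20 bases on either side, for 7 members whose values are given in full further on. Those of LGALS3BP (chr17:78979952-78980001, minus strand), IFI6 (chr1:27672256-27672368, minus strand), IFITM3 (chr11:320866-320932, minus strand) and IFIT1 (chr10:89392487-89392549, plus strand) belong to genes that were higher in LAPC4 OC2 OE. Those of BST2 (chr19:17405725-17405780, minus strand), PARP14 (chr3:122680790-122680839, plus strand) and GBP1 (chr1:89065306-89065355, minus strand) belong to genes that differed between drug arms. BST2 was called only in the comparisons with Enza, not in Combine against vehicle. All 7 are printed 5′ to 3′ on the gene's own strand.
LGALS3BP: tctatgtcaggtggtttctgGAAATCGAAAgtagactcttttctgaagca
IFI6: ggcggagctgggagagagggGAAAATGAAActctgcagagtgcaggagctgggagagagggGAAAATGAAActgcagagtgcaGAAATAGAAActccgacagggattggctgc
IFITM3: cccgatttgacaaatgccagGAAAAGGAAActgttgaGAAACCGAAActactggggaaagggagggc
IFIT1: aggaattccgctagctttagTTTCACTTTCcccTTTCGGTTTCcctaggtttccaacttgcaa
BST2: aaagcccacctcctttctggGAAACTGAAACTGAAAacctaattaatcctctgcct
PARP14: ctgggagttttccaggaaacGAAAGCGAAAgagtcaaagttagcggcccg
GBP1: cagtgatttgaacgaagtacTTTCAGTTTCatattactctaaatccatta
In IFIT1 and GBP1 the core lies on the opposite strand and so reads as its reverse complement. The BST2 stretch holds 2 overlapping cores that begin 130 and 124 bases before the start, and the single LGALS3BP core begins 58 bases before it. IFI6 carries 3 cores, of which 2 sit in copies of the same short repeat. Members with a window but no ISRE core were STAT2, IRF1, IRF9, OAS1, CMPK2, HERC6, UBE2L6, IFI16, IFI35, XAF1 and SAMD9L. A match is a description of these letters, not a site in use.

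**Figure D1:**
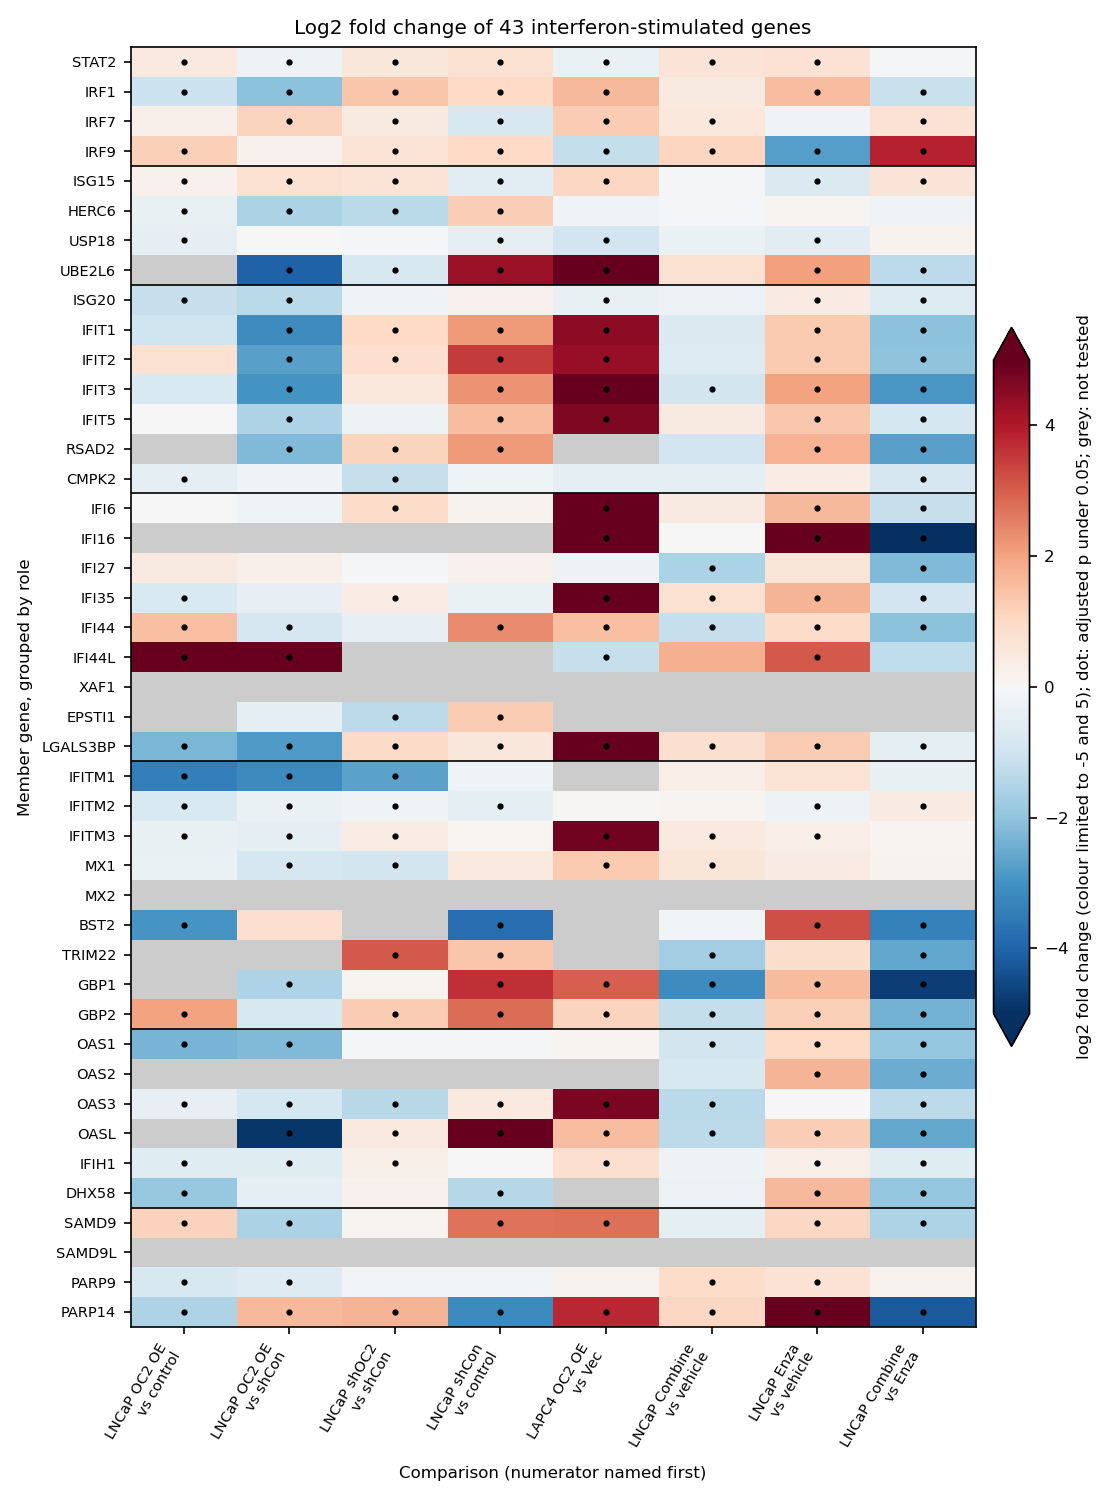
Log2 fold change of each of the 43 members (rows, grouped by role) in the 8 comparisons (columns, the numerator named first), with colour limited to -5 and 5. Dots mark adjusted p under 0.05 and grey cells were not tested. The LAPC4 OC2 OE and Enza columns are mostly red, while the LNCaP OC2 OE columns are mostly blue.

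In LAPC4, most of the members were higher with OC2 overexpression. Of the 33 members with enough counts for a test, 22 were called higher in OC2 OE than in Vec (edgeR quasi-likelihood test, Benjamini-Hochberg adjusted p under 0.05 over all genes), where 32.1% of all 16904 genes tested were called higher. A further 5 members were called lower, where 29% of all genes were, and 6 were not called. Their median log2 fold change was 1.52, while that of all genes was near 0. The members' values summed to 451.6 to 480.1 CPM in OC2 OE libraries, against 166.8 to 208.7 CPM in Vec libraries. By role, 4 of 6 tested IFIT-group members were called higher and 1 lower, 3 of 4 sensors and OAS enzymes higher, and 4 of 5 membrane and GTPase restriction factors higher. Of the 33 tested, 7 had fewer than 10 counts in every Vec library (GBP1, IFI16, IFI35, IFI6, IFIT1, IFIT3 and UBE2L6). These 7 passed the low-count filter only through OC2 OE, so they had to differ, and all 7 are among the 22 called higher. IFIT2, SAMD9, MX1, GBP2 and OASL fell under 10 counts in at least 1 Vec library. They too needed the OC2 OE libraries to pass the filter, and all were called higher. Without Vec library 3, which stood apart, 22 members were called higher and 6 lower. The 10 members without a test were IFITM1, MX2, OAS2, BST2, RSAD2, DHX58, XAF1, SAMD9L, TRIM22 and EPSTI1.

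The signalling factors of LAPC4 did not move as a block. IRF1, a transcription factor that is itself induced by interferon, had 5.94, 5.56 and 6.51 CPM in OC2 OE, against 1.95, 2.24 and 1.60 CPM in Vec (log2 fold change 1.64 ± 0.16 SE, edgeR adjusted p = 1.8e-05). IRF7, which amplifies the type I response, had 14.2, 9.80 and 12.5 CPM in OC2 OE, against 5.92, 5.37 and 3.90 CPM in Vec (1.26 ± 0.18 on the log2 scale, edgeR adjusted p = 0.000222). Every OC2 OE library was above every Vec library for these genes. For IRF9, the DNA-binding subunit of ISGF3, the values were 0.957, 1.15 and 1.503 CPM in OC2 OE, against 3.63, 2.93 and 1.67 CPM in Vec (log2 fold change -1.19 ± 0.30 SE, edgeR adjusted p = 0.00649), so the groups lay apart in the other direction. STAT2 had 77.3, 79.8 and 81.5 CPM in OC2 OE, against 116, 109 and 78.7 CPM in Vec, and the groups overlapped. Its log2 fold change of -0.35 ± 0.12 (SE, edgeR adjusted p = 0.0332) lost its call when any library except Vec 3 was left out, with values between -0.36 and -0.24.

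The largest fitted differences in LAPC4 were in genes that were nearly silent in Vec, including the 5 described here that entered the test only through OC2 OE (IFI35, IFI16, UBE2L6, IFI6 and IFIT3). LGALS3BP, a secreted glycoprotein that binds galectins, had 118, 112 and 122 CPM in OC2 OE, against 2.22, 1.52 and 1.95 CPM in Vec, a log2 fold change of 5.95 ± 0.11 (SE, edgeR adjusted p = 1.77e-10). IFI35, a protein that binds NMI and modulates innate signalling, had 20.5, 18.0 and 20.2 CPM in OC2 OE, against 0.137, 0.172 and 0.104 CPM in Vec, 137.8-fold higher (7.11 ± 0.18 on the log2 scale, edgeR adjusted p = 1.05e-09). IFI16, a sensor of foreign DNA, had 6.30, 5.83 and 5.11 CPM in OC2 OE, against 0, 0.0345 and 0.0696 CPM in Vec. The Vec values of IFI16 rested on 3 counts in all against 516 in OC2 OE, a ratio of 166.7 with an exact 95% counting interval of 56.7 to 811. UBE2L6, the enzyme that passes ISG15 to its ligases, had 15.2, 14.5 and 14.4 CPM in OC2 OE, against 0.274, 0.241 and 0.174 CPM in Vec (log2 fold change 5.97 ± 0.17 SE, edgeR adjusted p = 2.31e-09). In each of these genes the lowest OC2 OE library was far above the highest Vec library.

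IFI6, a small mitochondrial protein that restrains apoptosis, had 7.26, 6.17 and 6.08 CPM in OC2 OE, against 0.205, 0.0689 and 0.139 CPM in Vec (log2 fold change 5.52 ± 0.26 SE, edgeR adjusted p = 9.18e-08). IFIT3, a partner of the RNA-binding IFIT1, had 4.92, 3.97 and 5.51 CPM in OC2 OE, against 0.103, 0.138 and 0.139 CPM in Vec (5.20 ± 0.27 on the log2 scale, edgeR adjusted p = 1.68e-07). IFITM3 had 30.6, 27.7 and 33.7 CPM in OC2 OE, against 0.821, 1.07 and 1.39 CPM in Vec (4.81 ± 0.17 on the log2 scale, edgeR adjusted p = 8.15e-09). For OAS3, an enzyme that makes the oligoadenylate activator of RNase L, the values were 49.5, 52.7 and 54.7 CPM in OC2 OE, against 2.02, 1.79 and 2.16 CPM in Vec (4.71 ± 0.10 on the log2 scale, edgeR adjusted p = 3.28e-10). No library of the OC2 OE group came near the Vec range in these genes.

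**Figure D2:**
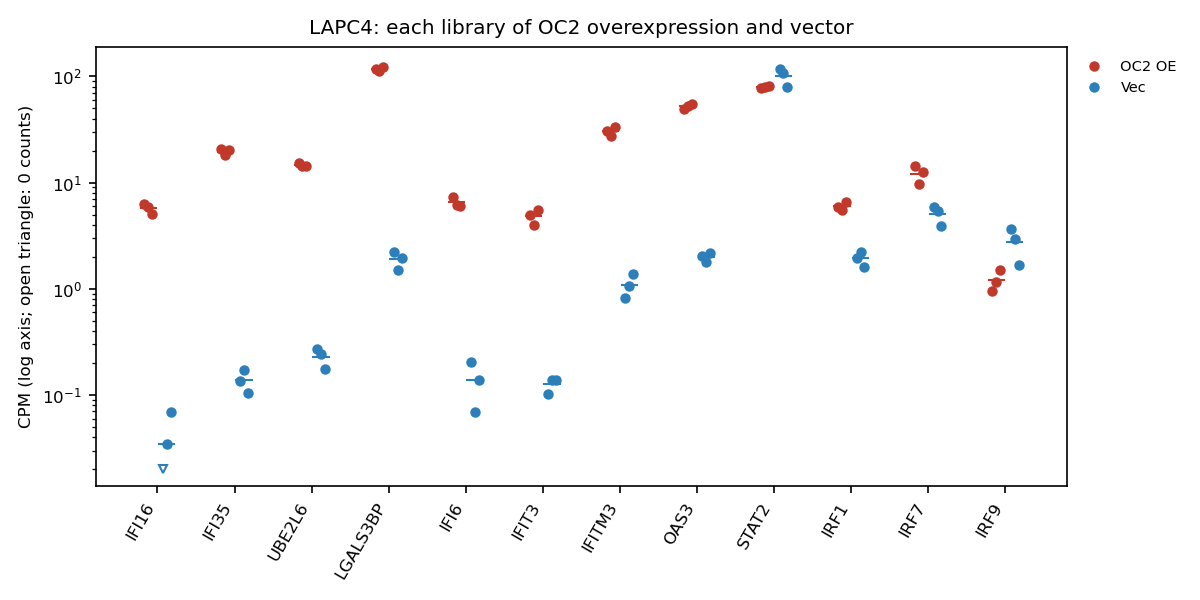
CPM on a log axis in each LAPC4 library, OC2 OE left of Vec, for the members with the largest called differences and the 4 signalling factors. Bars are group means and the open triangle marks 0 counts. The OC2 OE libraries of LGALS3BP sit between 112 and 122 CPM, against 1.52 to 2.22 CPM in Vec, while STAT2 overlaps between the groups.

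Neighbouring members differed within their clusters in LAPC4. All 4 IFIT genes were called higher, with log2 fold changes between 4.34 for IFIT2 and 5.20 for IFIT3. OAS3 was called higher, while its neighbour OAS1 had 0.693, 0.780 and 0.635 CPM in OC2 OE, against 0.787, 0.551 and 0.592 CPM in Vec, and OAS2 had 26 counts in all in OC2 OE, against 3 in Vec. IFI44 had a log2 fold change of 1.52 and the adjacent IFI44L of -1.16, both called by edgeR. PARP14, a mono-ADP-ribosyltransferase, had 23.1, 20.6 and 22.6 CPM in OC2 OE, against 1.64, 1.52 and 1.71 CPM in Vec, whereas the neighbouring PARP9 was not called at a log2 fold change of 0.17. Within the ISG15 pathway ISG15 and UBE2L6 were called higher, the ISG15-removing protease USP18 lower at -0.97 on the log2 scale, and HERC6 was not called. The 5 members called lower were IRF9, IFI44L, USP18, ISG20 and STAT2, and without Vec library 1 only 3 members were called lower.

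Members with an ISRE core in the promoter window were called higher in LAPC4 OC2 OE in 14 of 18 tested and lower in 2. Members with a window but without the core were called higher in 4 of 9 tested and lower in 2. Of all genes tested, 32.1% were called higher and 29% lower. Members that entered the test only through OC2 OE are in both sets. They include IFI6, IFIT1, IFIT3 and GBP1 with the core, and IFI35, IFI16 and UBE2L6 without it. The difference between these shares was not tested, and the genes without the core included IFI35, IFI16 and UBE2L6, which had some of the largest changes.

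Other genes of the interferon system in LAPC4 were counted from lists of known pathway genes. Of 29 tested genes on a list of other interferon-induced genes, 25 were called higher in OC2 OE and 1 lower, with a median log2 fold change of 1.55, where 32.1% and 29% of all genes were called in each direction. SP100, a nuclear body protein, had 25.9, 27.3 and 23.9 CPM in OC2 OE, against 1.23, 1.14 and 0.348 CPM in Vec, and the scramblase PLSCR1 had 26.9, 25.2 and 27.4 CPM in OC2 OE, against 3.86, 3.24 and 3.17 CPM in Vec. The 10 interferon ligand genes on the list, IFNB1 among them, had too few counts for a test in any comparison, with summed values of at most 0.365 CPM in any library. Receptors were present: IFNAR1 had 97.1, 108 and 97.6 CPM in OC2 OE, against 88.4, 85.4 and 89.6 CPM in Vec. Among receptors and kinases 4 of 9 were called higher and none lower, led by JAK1 with 68.6, 72.1 and 74.6 CPM in OC2 OE, against 9.71, 8.37 and 6.89 CPM in Vec (log2 fold change 3.11 ± 0.11 SE, edgeR adjusted p = 1.27e-08). Of 11 tested genes of nucleic acid sensing, a list that includes the member IFI16, 8 were called higher and 1 lower. CGAS, which senses cytosolic DNA, had 991 counts in OC2 OE, against 2 in Vec. SOCS3, a feedback inhibitor of cytokine receptors, had 18.1, 17.4 and 16.9 CPM in OC2 OE, against 0.376, 0.207 and 0.278 CPM in Vec. Among NF-kB target genes 7 of 10 tested were called higher and 2 lower. Summed fibroblast markers were 17.2 to 19.8 CPM in OC2 OE, against 3.62 to 5.96 CPM in Vec, while the fibroblast gene DCN was at most 0.305 CPM and PTPRC, the pan-leukocyte marker, at most 0.104 CPM. The part of such markers in the result was not tested.

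In LNCaP the same factor went with lower values for most members that changed. Of 32 members tested, 7 were called higher in OC2 OE than in control, where 31.6% of all 17046 genes tested were called higher, and 17 were called lower, where 29.3% of all genes were. The median log2 fold change of the members was -0.44, and it was the same with IFI44L set at its lower bound. Their summed values were 363.5 to 383.9 CPM in OC2 OE, against 453.8 to 497.0 CPM in control. Lower values were found among the RNA sensors and OAS enzymes (4 of 4 tested) and the membrane and GTPase restriction factors (4 of 6 tested, with 1 higher). The 11 members not tested were IFI16, MX2, OAS2, OASL, RSAD2, XAF1, SAMD9L, TRIM22, UBE2L6, EPSTI1 and GBP1.

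IFITM1, which blocks viral entry at the cell surface, had 0.449 and 0.179 CPM in OC2 OE, against 4.02 and 2.81 CPM in control (log2 fold change -3.42 ± 0.39 SE, edgeR adjusted p = 5.04e-05). BST2, the tetherin that holds budding virus at the membrane, had 0.494 and 0.583 CPM in OC2 OE, against 4.02 and 4.30 CPM in control (-2.94 ± 0.26 on the log2 scale, edgeR adjusted p = 8.86e-06). OAS1 had 0.315 and 0.448 CPM in OC2 OE, against 2.27 and 1.62 CPM in control, a log2 fold change of -2.33 ± 0.37 (SE, edgeR adjusted p = 0.000429). All OC2 OE libraries lay below the control libraries for these genes. IFITM1 had 10 and 4 counts in OC2 OE, and OAS1 had 7 and 10. Both needed the control libraries to pass the low-count filter, which favours lower values in OC2 OE.

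LGALS3BP had 4.40 and 3.41 CPM in LNCaP OC2 OE, against 20.6 and 17.6 CPM in control (log2 fold change -2.29 ± 0.15 SE, edgeR adjusted p = 1.31e-06). DHX58, also called LGP2, which regulates RNA sensing, had 1.17 and 1.70 CPM in OC2 OE, against 5.83 and 4.90 CPM in control (-1.90 ± 0.24 on the log2 scale, edgeR adjusted p = 8.61e-05). PARP14 had 3.59 and 3.00 CPM in OC2 OE, against 9.02 and 10.4 CPM in control (-1.55 ± 0.17 on the log2 scale, edgeR adjusted p = 3.13e-05). These genes too were apart between the groups in every library.

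The exceptions were the 7 members called higher. IFI44L had 5.57 and 5.74 CPM in OC2 OE and no count in either control library, which makes it at least 42.4-fold higher against a floor of 3 counts per control library. Its neighbour IFI44 was called higher as well, at 1.52 on the log2 scale. ISG15 had 61.9 and 57.1 CPM in OC2 OE, against 51.8 and 50.5 CPM in control (0.22 ± 0.08 on the log2 scale, edgeR adjusted p = 0.0343). GBP2, an interferon-induced GTPase, had 1.75 and 0.762 CPM in OC2 OE, against 0.416 and 0.213 CPM in control (1.99 ± 0.53 on the log2 scale, edgeR adjusted p = 0.00845), and the call was lost without OC2 OE library 1 or without either control library. IFI44L and GBP2 had fewer than 10 counts in each control library and entered the test only through OC2 OE, so they had to differ. SAMD9, called higher at 1.13, had 7 and 16 counts in control and also needed OC2 OE to pass the filter. Of the 4 signalling factors, IRF9 had 6.42 and 6.27 CPM in OC2 OE, against 2.50 and 3.02 CPM in control (1.20 ± 0.18 on the log2 scale, edgeR adjusted p = 0.000323). STAT2 had 30.2 and 27.9 CPM in OC2 OE, against 21.2 and 19.9 CPM in control, and was called higher at 0.50 ± 0.09. IRF1 had 1.39 and 1.21 CPM in OC2 OE, against 2.87 and 2.68 CPM in control, and was called lower at -1.09 ± 0.24. IRF7 had 28.2 and 25.8 CPM in OC2 OE, against 24.5 and 20.3 CPM in control, and was not called (edgeR adjusted p = 0.0564). IRF9 and STAT2 thus stood higher in the OC2 OE libraries, in which most of the antiviral effectors that changed were lower.

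The list of other interferon-induced genes was mixed in LNCaP OC2 OE, with 6 of 30 tested called higher and 10 lower, where 31.6% and 29.3% of all genes were, so the lower calls were near the share of all genes. PARP10 had 3.15 and 2.51 CPM in OC2 OE, against 109 and 94.99 CPM in control, and PSMB8, a subunit of the immunoproteasome, had 0.225 and 0.134 CPM in OC2 OE, against 3.75 and 3.15 CPM in control. IFI30, a lysosomal thiol reductase, stood at 20.8 and 20.9 CPM in OC2 OE, against 0.0463 and 0.128 CPM in control. Among receptors and kinases 5 of 9 were called higher and 1 lower. IFNLR1, a chain of the type III interferon receptor, had 122 counts in OC2 OE and none in control, at least 20.5-fold higher. Summed luminal epithelial markers were 3223 to 3335 CPM in OC2 OE, against 6601 to 6664 CPM in control, and their part in these results was not tested.

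A second set of LNCaP libraries, shCon, gives another baseline, and the outcome for many members depended on which baseline was used. OC2 OE against shCon rests on the same OC2 OE libraries as OC2 OE against control, so the values of each comparison are given side by side and not counted as independent. Of 37 members tested, 4 were called higher in OC2 OE than in shCon, where 33.2% of all 17182 genes were called higher, and 23 were called lower, where 30.8% of all genes were. The median log2 fold change of the members was -0.78. Their summed values were 384.6 to 406.9 CPM in OC2 OE, against 518.6 to 551.4 CPM in shCon.

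Several effectors were called lower in OC2 OE against shCon and were not called or not tested against control. Of these, OASL, UBE2L6 and RSAD2 had fewer than 10 counts in each OC2 OE library. They entered the test only through shCon, so they had to differ, and all were called lower. IFIT1 and IFIT3 fell under 10 counts in 1 OC2 OE library, as did IFITM1 and OAS1, which were called lower against control as well. OASL, an OAS family member without synthetase activity, had 0.143 and 0.332 CPM in OC2 OE, against 7.68 and 6.58 CPM in shCon (log2 fold change -4.88 ± 0.31 SE, edgeR adjusted p = 4.68e-07), and only 10 counts in OC2 OE against 7 in control. UBE2L6 had 0.143 and 0.427 CPM in OC2 OE, against 4.51 and 5.12 CPM in shCon (-4.05 ± 0.35 on the log2 scale, edgeR adjusted p = 4.2e-06), and 12 counts in OC2 OE against 10 in control. IFIT1 had 0.619 and 0.379 CPM in OC2 OE, against 5.01 and 3.87 CPM in shCon, a log2 fold change of -3.14 ± 0.30 (SE, edgeR adjusted p = 9.59e-06). Against control, IFIT1 had a log2 fold change of -1.001 that was not called. IFIT3 and IFIT2 were at -2.98 and -2.72 against shCon, and at -0.75 and 0.77 without a call against control.

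For other members the direction was alike against either baseline. IFITM1 was at -3.20 ± 0.47 against shCon, with 0.476 and 0.190 CPM in OC2 OE, against 4.09 and 2.12 CPM in shCon, although the call against shCon was lost without either OC2 OE library. LGALS3BP was at -2.84 ± 0.13 against shCon, with 4.67 and 3.60 CPM in OC2 OE, against 31.3 and 27.98 CPM in shCon. IFI44L had 5.90 and 6.07 CPM in OC2 OE, against 0.209 and 0.125 CPM in shCon (5.12 ± 0.30 on the log2 scale, edgeR adjusted p = 2.86e-07). It had fewer than 10 counts in each shCon library and entered the test only through OC2 OE. IRF1 was at -2.06 ± 0.20, with 1.48 and 1.28 CPM in OC2 OE, against 6.09 and 5.45 CPM in shCon. ISG15 was called higher at 0.77 ± 0.08, with 65.6 and 60.4 CPM in OC2 OE, against 39.2 and 34.6 CPM in shCon.

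Some members changed sign with the baseline. PARP14 had a log2 fold change of 1.63 ± 0.37 in OC2 OE against shCon and of -1.55 ± 0.17 against control, each called by edgeR. STAT2, IFI44 and SAMD9 were called lower against shCon, at -0.27, -0.84 and -1.56, and higher against control, at 0.50, 1.52 and 1.13. The small STAT2 difference from shCon lost its call without OC2 OE library 2 or without either shCon library. IRF7 was called higher against shCon at 1.10 ± 0.09, and IRF9 was not called at 0.21 ± 0.17.

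The shCon and control libraries themselves differed in most members. Of 37 tested, 19 were called higher in shCon than in control, where 28.3% of all 16790 genes were called higher. A further 7 were called lower, where 28.1% of all genes were, and the members' median log2 fold change was 0.51. EPSTI1, GBP1, GBP2, OASL, TRIM22 and UBE2L6 had fewer than 10 counts in each control library, and BST2 in each shCon library. These entered the test only through the other group, so they had to differ, and all were called. SAMD9 and RSAD2, called higher too, fell under 10 counts in 1 control library. OASL had 7.72 and 6.61 CPM in shCon, against 0.147 and 0.181 CPM in control (5.40 ± 0.30 on the log2 scale, edgeR adjusted p = 1.15e-06). UBE2L6 was at 4.33 ± 0.30, GBP1 at 3.66 ± 0.45, IFIT2 at 3.50 ± 0.25, GBP2 at 2.78 ± 0.37 and SAMD9 at 2.70 ± 0.35. In the other direction BST2 had 0.252 and 0.376 CPM in shCon, against 4.25 and 4.57 CPM in control (-3.79 ± 0.30 on the log2 scale, edgeR adjusted p = 1.07e-05), and PARP14 had 1.68 and 0.586 CPM in shCon, against 9.53 and 11.0 CPM in control (-3.18 ± 0.32). STAT2, IRF1 and IRF9 were called higher in shCon, at 0.78, 0.98 and 0.99, and IRF7 lower at -0.82. The call of IRF9 was lost without either control library.

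The sample descriptions give a shared code to 10 LNCaP libraries, those of shOC2, shCon, Combine and vehicle, and other names to control, OC2 OE and Enza. Raw count ranges of some members differed between these sets, though the libraries without the code did not form a single range. IFI16 had 13 to 23 counts in Enza, 2 to 3 in OC2 OE and 3 to 4 in control, and 0 in all 10 libraries with the code. BST2 had 104 to 182 counts in Enza and 87 to 101 in control, but 11 to 13 in OC2 OE and 5 to 14 in the 10 coded libraries. PARP14 had 798 to 1461 counts in Enza and 195 to 243 in control, but 67 to 80 in OC2 OE and 13 to 90 in the coded libraries. DHX58 had 214 to 293 counts in Enza and 115 to 126 in control, but 26 to 38 in OC2 OE and 37 to 69 in the coded libraries. OASL had 47 to 261 counts in the coded libraries, against 482 to 627 in Enza, 3 to 7 in OC2 OE and 3 to 4 in control. UBE2L6 had 50 to 123 in the coded libraries, against 257 to 544 in Enza, 3 to 9 in OC2 OE and 5 in each control library. Library set and treatment cannot be told apart in comparisons that cross the code, which are shCon against control, OC2 OE against shCon and both comparisons with Enza.

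**Figure D3:**
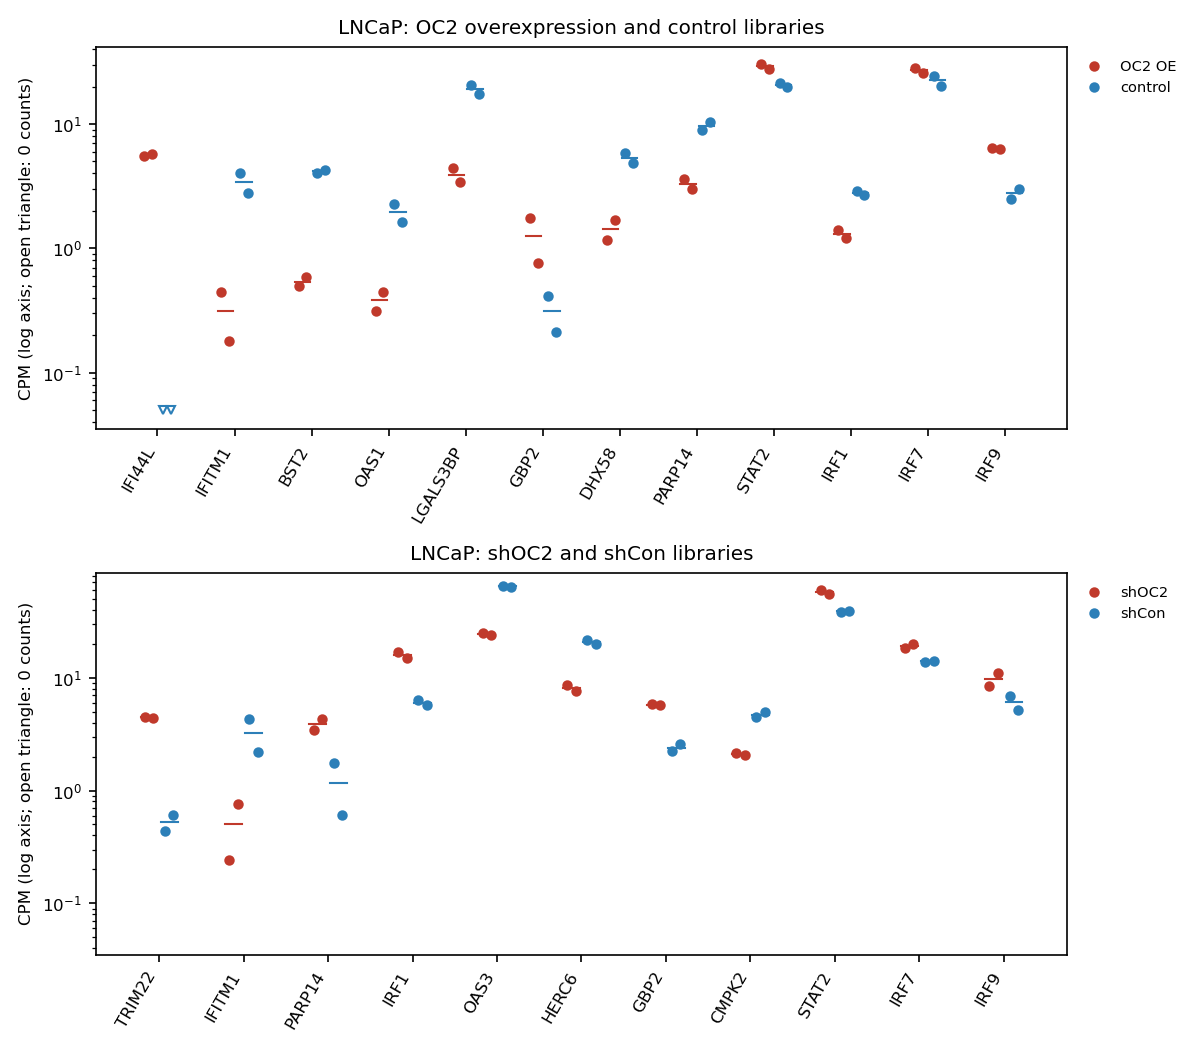
CPM on a log axis in each LNCaP library for the members with the largest called differences and the 4 signalling factors, with OC2 OE left of control (top) and shOC2 left of shCon (bottom). Bars are group means and open triangles mark 0 counts. BST2 sits at 0.494 and 0.583 CPM in OC2 OE, against 4.02 and 4.30 CPM in control, and TRIM22 at 4.48 and 4.42 CPM in shOC2, against 0.435 and 0.607 CPM in shCon.

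The difference between the lines was tested directly as the log2 fold change of OC2 OE in LAPC4 minus that in LNCaP against control. It was positive and called for 24 of 40 members tested, where 25.4% of all 19633 genes were called in that direction, and negative for 4, where 24.1% of all genes were. The 40 include members that were too low for a test in at least 1 line alone. Of these, OAS2, IFI16, UBE2L6 and BST2 are among the 24, and their fitted differences are descriptions only. Among 29 members tested in both lines separately, 7 were called higher in LAPC4 OC2 OE and lower in LNCaP OC2 OE. Another 4 were called higher in both and 2 lower in both, and 3 were called lower in LAPC4 and higher in LNCaP. The shares of all genes with these patterns are not given here, so the counts have no background beside them. In each line alone, 29% to 32.1% of all genes were called in either direction. LGALS3BP differed by 8.24 ± 0.19 (SE, edgeR adjusted p = 2.43e-12), at 5.95 in LAPC4 and -2.29 in LNCaP. IFI35 differed by 7.85 ± 0.25 (edgeR adjusted p = 2.81e-11), at 7.11 in LAPC4 and -0.75 in LNCaP. PARP14 differed by 5.32 ± 0.20, at 3.77 in LAPC4 and -1.55 in LNCaP, and IFITM3 by 5.19 ± 0.21, at 4.81 in LAPC4 and -0.39 in LNCaP. IRF1 differed by 2.72 ± 0.28, at 1.64 in LAPC4 and -1.09 in LNCaP.

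The members whose change was more positive in LNCaP were IRF9, STAT2, USP18 and IFI44L. IRF9 differed by -2.38 ± 0.39 (edgeR adjusted p = 0.000198) and STAT2 by -0.85 ± 0.19 (edgeR adjusted p = 0.00184), so the ISGF3 components ran against the effectors in the comparison of lines. IFI44L had 88, 79 and 88 counts in LAPC4 OC2 OE, against 140, 176 and 234 in Vec, while LNCaP had 124 and 128 counts in OC2 OE, against 0 in both control libraries. GBP2 and IFI44 were called higher in each line, and the difference between lines was not called for either. Cell line, medium, R1881 and the size of the OC2 rise cannot be told apart in this difference, and it rests on the LNCaP control libraries as baseline.

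**Figure D4:**
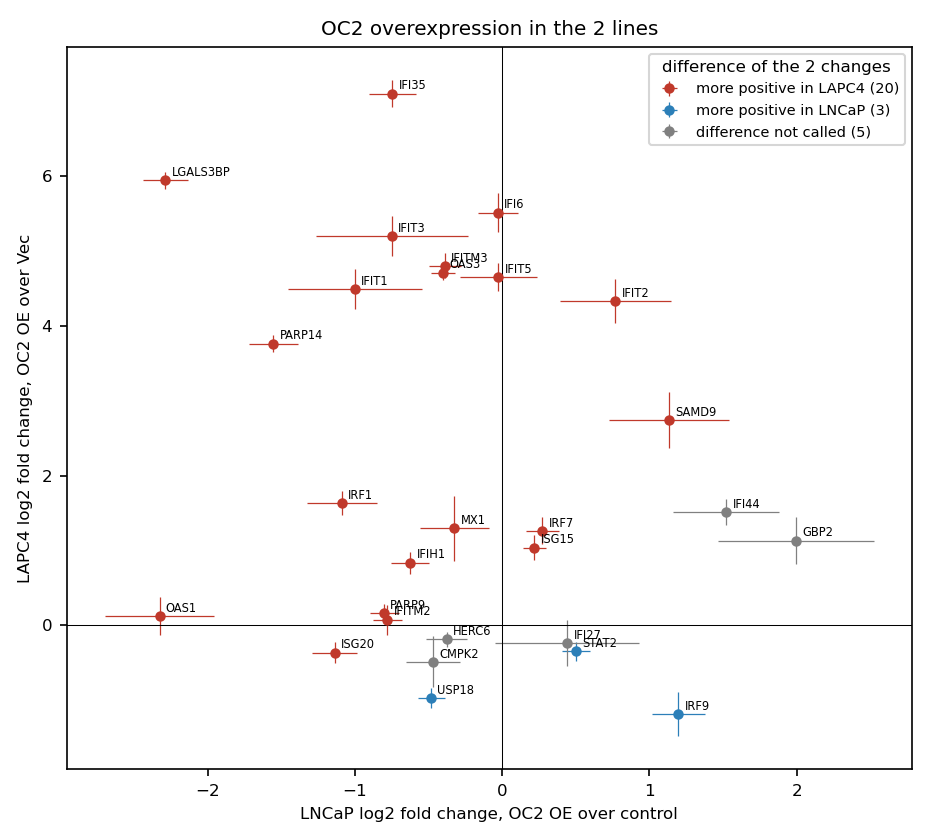
Log2 fold change of OC2 OE in LAPC4 (over Vec, vertical) and in LNCaP (over control, horizontal) for the 28 members tested in both lines with counts in every group, with standard errors as bars. Colour gives the call on the difference between the lines, and 20 members in red were more positive in LAPC4, led by LGALS3BP and IFI35.

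With the hairpin against OC2, more members of LNCaP were called higher than lower. Of 36 tested, 17 were called higher in shOC2 than in shCon, where 27.3% of all 16585 genes were called higher, and 8 were called lower, where 26.8% of all genes were. The median log2 fold change was 0.26. The members summed to 642.0 to 650.9 CPM in shOC2, against 540.3 to 574.6 CPM in shCon. The 7 members not tested were IFI16, IFI44L, MX2, OAS2, BST2, XAF1 and SAMD9L. The counts rest on few libraries: without shOC2 library 2, 9 members were called higher and 4 lower, and without shOC2 library 1, 3 were called lower.

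All 4 signalling factors were called higher in shOC2. IRF1 had 16.8 and 15.1 CPM in shOC2, against 6.35 and 5.68 CPM in shCon (log2 fold change 1.40 ± 0.12 SE, edgeR adjusted p = 8.1e-06). STAT2 had 59.9 and 55.6 CPM in shOC2, against 38.4 and 38.9 CPM in shCon (0.58 ± 0.06 on the log2 scale, edgeR adjusted p = 4.06e-05). IRF7 had 18.2 and 19.9 CPM in shOC2, against 13.9 and 14.01 CPM in shCon, at 0.45 ± 0.09, and IRF9 8.42 and 11.0 CPM in shOC2, against 6.87 and 5.21 CPM in shCon, at 0.68 ± 0.18. The libraries of the groups were apart for each factor, while the calls of IRF7 and IRF9 were lost without shOC2 library 2 and that of IRF9 also without shOC2 library 1.

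TRIM22, an antiviral ubiquitin ligase, had 4.48 and 4.42 CPM in shOC2, against 0.435 and 0.607 CPM in shCon (3.08 ± 0.27 on the log2 scale, edgeR adjusted p = 1.15e-05). PARP14 had 3.46 and 4.28 CPM in shOC2, against 1.74 and 0.607 CPM in shCon (1.72 ± 0.37, edgeR adjusted p = 0.00335), a call that was lost without either shOC2 library. GBP2 had 5.84 and 5.71 CPM in shOC2, against 2.22 and 2.56 CPM in shCon (1.27 ± 0.18, edgeR adjusted p = 0.000278). LGALS3BP had 59.7 and 58.5 CPM in shOC2, against 32.6 and 29.2 CPM in shCon, at 0.94 ± 0.07. ISG15, IFI6, IFIT1, IFIT2, IFITM3, RSAD2, OASL, IFIH1 and IFI35 made up the rest of those called higher, between 0.30 for IFIH1 and 1.12 for RSAD2.

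OAS3 and HERC6 moved the other way. OAS3 had 24.8 and 24.1 CPM in shOC2, against 64.5 and 63.9 CPM in shCon (-1.39 ± 0.06 on the log2 scale, edgeR adjusted p = 1.4e-07). HERC6, a HECT-domain protein, had 8.67 and 7.56 CPM in shOC2, against 21.5 and 19.8 CPM in shCon (-1.35 ± 0.11, edgeR adjusted p = 5.53e-06). CMPK2, a mitochondrial nucleotide kinase, had 2.14 and 2.04 CPM in shOC2, against 4.44 and 4.99 CPM in shCon (-1.17 ± 0.20, edgeR adjusted p = 0.00074), while its neighbour RSAD2 was higher. IFITM1 had 0.243 and 0.761 CPM in shOC2, against 4.26 and 2.21 CPM in shCon (-2.67 ± 0.48, edgeR adjusted p = 0.00101), and the call was lost without shOC2 library 1. IFITM2, MX1, UBE2L6 and EPSTI1 were the other members called lower, and EPSTI1 had fewer than 10 counts in each shOC2 library. OAS3, IFITM1, IFITM2, HERC6 and CMPK2 were called lower in shOC2 against shCon and also in OC2 OE against control. In these comparisons 26.8% and 29.3% of all genes were called lower, and the share called lower in both is not given here. IFITM1 had 5 and 16 counts in shOC2 and needed the shCon libraries to pass the filter.

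Beyond the members, 15 of 30 other interferon-induced genes were called higher in shOC2 and 5 lower, where 27.3% and 26.8% of all genes were. The chemokine CXCL10 had 8.86 and 8.65 CPM in shOC2, against 1.44 and 0.998 CPM in shCon, and CXCL11 had 2.58 and 2.14 CPM in shOC2, against 0.217 and 0.0868 CPM in shCon. Of 9 genes of nucleic acid sensing 6 were called higher and 1 lower, and RIGI, which senses viral RNA, had 14.3 and 15.4 CPM in shOC2, against 7.18 and 7.46 CPM in shCon. Among 8 receptors and kinases 4 were called higher and 1 lower, and among 10 NF-kB target genes 6 higher and 2 lower. Summed leukocyte markers were 25.3 to 25.8 CPM in shOC2, against 5.001 to 5.34 CPM in shCon, and CD68 made up 23.8 CPM of that in each shOC2 library, against 4.48 and 4.77 CPM in shCon. PTPRC and CD3E had no count in these 4 libraries.

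In the drug experiment the 3 arms share the vehicle or the Enza libraries between comparisons, so their values are given side by side. Adding enzalutamide alone went with higher values for most members. Of 39 tested, 27 were called higher in Enza than in vehicle, where 34.7% of all 17429 genes were called higher, and 4 were called lower, where 35.6% of all genes were. The median log2 fold change was 1.04, and without the first Enza library 26 members were called higher and 5 lower. In Combine against vehicle 9 members were called higher, where 23.2% of all genes were, and 9 lower, where 23.6% were, with a median of -0.14, so these counts were near the share of all genes in either direction. In Combine against Enza 4 were called higher, where 31.5% of all genes were, and 27 lower, where 30.4% were, with a median of -1.28. Summed member values were 648.4 to 675.9 CPM in Combine and 760.1 to 895.5 CPM in Enza, against 526.1 to 574.0 CPM in vehicle. MX2, XAF1, SAMD9L and EPSTI1 were not tested. GBP1, IFI16, IFI27, IFI44L and OAS2 had fewer than 10 counts in every Combine library. They entered the test only through the other arms, which favours lower values in Combine. GBP1 and IFI27 are among the 9 called lower than vehicle, and GBP1, IFI16, IFI27 and OAS2 among the 27 lower than Enza. IFI16 and IFI44L, among the 27 higher in Enza than in vehicle, had fewer than 10 counts in every vehicle library.

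The Enza columns hold whole numbers while the Combine and vehicle columns hold estimated counts, and the Enza libraries lack the shared sample code. Counting step, library set and drug therefore cannot be told apart wherever Enza enters. Combine and vehicle libraries do not differ in counting step or sample code. The Enza libraries still entered the shared fit, and so the filter, scaling and estimate of spread used for Combine against vehicle.

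Among the signalling factors, IRF1 had 6.61, 11.1 and 8.26 CPM in Combine and 20.8, 15.9 and 19.97 CPM in Enza, against 6.19, 7.84 and 5.16 CPM in vehicle. It was called higher in Enza (1.56 ± 0.21 on the log2 scale, edgeR adjusted p = 8.52e-05) and not called in Combine against vehicle (0.43 ± 0.22). IRF9 had 12.1, 11.4 and 12.1 CPM in Combine and 1.52, 0.373 and 0.563 CPM in Enza, against 5.16, 5.31 and 6.32 CPM in vehicle. Its log2 fold change was 1.08 ± 0.32 in Combine against vehicle (edgeR adjusted p = 0.0176), -2.76 ± 0.37 in Enza against vehicle and 3.84 ± 0.37 in Combine against Enza. Since IRF9 overlaps another gene in its exons, the part of the counting step in the Enza values was not tested. STAT2 had 76.7, 69.7 and 72.3 CPM in Combine and 96.8, 62.6 and 69.8 CPM in Enza, against 44.5, 44.6 and 49.2 CPM in vehicle, and was called higher in each arm than in vehicle, at 0.66 in Combine and 0.73 in Enza. IRF7 had 29.3, 34.4 and 28.1 CPM in Combine and 23.5, 15.2 and 17.3 CPM in Enza, against 22.6, 19.6 and 21.1 CPM in vehicle. IRF7 was called higher in Combine than in vehicle at 0.54 ± 0.15 (edgeR adjusted p = 0.0161) and was not called in Enza. All 4 factors were at least as high in Combine as in vehicle by their means. The call of IRF9 in Combine was lost without vehicle library 1 or 2, and that of IRF7 without Combine library 2 or vehicle library 2.

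**Figure D5:**
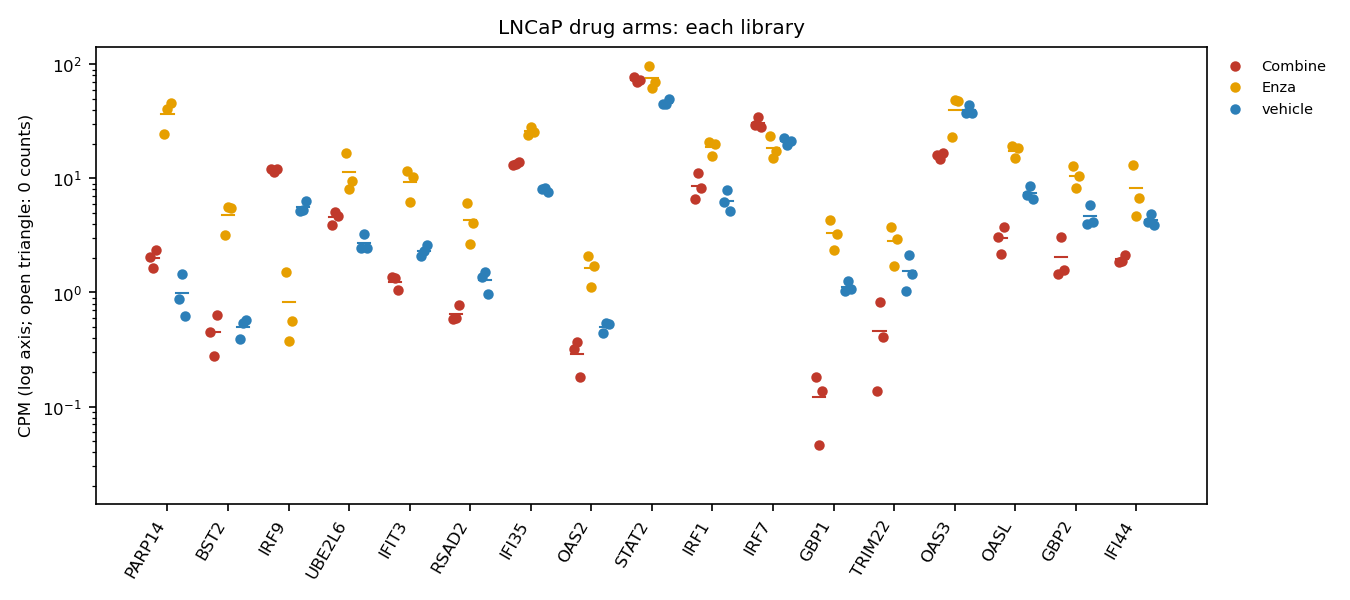
CPM on a log axis in each library of the drug experiment, Combine and Enza left of vehicle, for the members with the largest called differences and the 4 signalling factors. Bars are group means. PARP14 stands out with 24.3 to 45.7 CPM in Enza, against 0.627 to 1.46 CPM in vehicle, and GBP1 with 0.0459 to 0.181 CPM in Combine, against 1.02 to 1.27 CPM in vehicle.

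The effectors differed in where Combine stood: some were called higher in Combine than in vehicle, some lower, and 21 members were not called. PARP14 had 2.04, 1.65 and 2.36 CPM in Combine and 24.3, 40.5 and 45.7 CPM in Enza, against 0.877, 1.46 and 0.627 CPM in vehicle. Its log2 fold change was 5.21 ± 0.32 in Enza (edgeR adjusted p = 2.84e-07) and 1.03 ± 0.37 in Combine (edgeR adjusted p = 0.0409), each against vehicle, and the second call was lost without any 1 Combine library, vehicle library 1 or vehicle library 3. BST2 had 0.453, 0.275 and 0.635 CPM in Combine and 3.17, 5.66 and 5.501 CPM in Enza, against 0.390, 0.536 and 0.579 CPM in vehicle, with a log2 fold change of 3.24 ± 0.35 in Enza against vehicle (edgeR adjusted p = 1.49e-05). The Enza libraries stood above all others for these genes, and the first Enza library was the lowest of the 3.

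UBE2L6 had 3.94, 5.09 and 4.72 CPM in Combine and 16.6, 7.997 and 9.50 CPM in Enza, against 2.44, 3.26 and 2.46 CPM in vehicle (2.06 ± 0.28 on the log2 scale in Enza against vehicle, edgeR adjusted p = 7.86e-05). IFIT3 had 1.36, 1.33 and 1.04 CPM in Combine and 11.5, 6.22 and 10.3 CPM in Enza, against 2.09, 2.29 and 2.61 CPM in vehicle, at 2.00 ± 0.24 in Enza and -0.90 ± 0.27 in Combine, each against vehicle and each called. RSAD2, the radical enzyme viperin, had 0.589, 0.597 and 0.771 CPM in Combine and 6.09, 2.68 and 4.06 CPM in Enza, against 1.36, 1.51 and 0.965 CPM in vehicle. For RSAD2 the log2 fold change was 1.74 ± 0.32 in Enza against vehicle and -2.70 ± 0.34 in Combine against Enza. IFI35 had 13.1, 13.3 and 13.97 CPM in Combine and 23.9, 28.4 and 25.4 CPM in Enza, against 8.04, 8.18 and 7.63 CPM in vehicle, and was called higher in each arm, at 0.76 ± 0.10 in Combine and 1.70 ± 0.10 in Enza. OAS2 had 0.317, 0.367 and 0.182 CPM in Combine and 2.07, 1.12 and 1.72 CPM in Enza, against 0.438, 0.536 and 0.531 CPM in vehicle. In these effectors the order of the arms was the same except that IFI35 and UBE2L6 in Combine were above vehicle.

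GBP1, a GTPase that attacks intracellular pathogens, had 0.181, 0.0459 and 0.136 CPM in Combine and 4.32, 2.37 and 3.25 CPM in Enza, against 1.02, 1.27 and 1.06 CPM in vehicle. Its log2 fold change in Combine was -3.15 ± 0.45 against vehicle (edgeR adjusted p = 0.000342) and -4.72 ± 0.41 against Enza (edgeR adjusted p = 4.63e-06). GBP1 had 4, 1 and 3 counts in Combine and entered the test only through the other arms. GBP2 had 1.45, 3.08 and 1.59 CPM in Combine and 12.8, 8.25 and 10.5 CPM in Enza, against 3.99, 5.79 and 4.15 CPM in vehicle, at -1.19 ± 0.30 in Combine against vehicle. OASL had 3.04, 2.16 and 3.77 CPM in Combine and 19.1, 15.0 and 18.5 CPM in Enza, against 7.16, 8.57 and 6.61 CPM in vehicle (-1.32 ± 0.20 in Combine against vehicle, edgeR adjusted p = 0.000593). OAS3 had 16.0, 14.8 and 16.7 CPM in Combine and 23.1, 48.4 and 47.7 CPM in Enza, against 37.7, 43.8 and 37.7 CPM in vehicle. OAS3 was called lower in Combine than in vehicle at -1.33 ± 0.24, and in Enza it overlapped vehicle because the first Enza library was low. TRIM22 had 0.136, 0.826 and 0.408 CPM in Combine and 3.75, 1.71 and 2.97 CPM in Enza, against 1.02, 2.14 and 1.45 CPM in vehicle. IFI44 had 1.86, 1.88 and 2.13 CPM in Combine and 13.2, 4.70 and 6.69 CPM in Enza, against 4.14, 4.87 and 3.91 CPM in vehicle. The Combine libraries were below all vehicle libraries for each of these genes. IFI27 at -1.59 and OAS1 at -0.93 were the other members called lower in Combine than in vehicle beside IFIT3. The call of TRIM22 was lost without Combine library 1 or 3 or vehicle library 2 or 3, and that of IFI44 without any 1 Combine library or vehicle library 2. In all, 5 members in place of 9 were called lower without Combine library 3 or without vehicle library 2.

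Members higher in Combine than in vehicle included LGALS3BP with 70.3, 67.3 and 70.6 CPM in Combine and 109, 83.0 and 94.7 CPM in Enza, against 37.2, 41.0 and 41.1 CPM in vehicle. PARP9 had 62.2, 56.0 and 59.7 CPM in Combine and 58.1, 49.7 and 47.7 CPM in Enza, against 29.3, 33.2 and 32.1 CPM in vehicle. IFITM3 was called higher in Combine at 0.48 ± 0.08 and MX1, a dynamin-like antiviral GTPase, at 0.60 ± 0.19, each against vehicle. ISG15, USP18, IFITM2 and IRF9 were the members called lower in Enza, at -0.71, -0.53, -0.26 and -2.76 against vehicle. ISG15 had 49.2, 53.7 and 48.4 CPM in Combine and 36.3, 32.5 and 28.9 CPM in Enza, against 51.5, 57.3 and 51.1 CPM in vehicle, so it was lower in the arm in which most other members were higher. IFI16 had 13 to 23 counts per Enza library and none in Combine or vehicle, at least 3.98-fold higher in Enza than in vehicle against the floor, and it entered the test only through Enza.

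Members with an ISRE core were called higher in Enza against vehicle in 16 of 21 tested and lower in 1. Members with a window but no core were called higher in 6 of 9 and lower in 1. Of all genes tested, 34.7% were called higher in Enza than in vehicle and 35.6% lower. For Combine against vehicle the counts were 5 higher and 5 lower of 21 with the core, and 3 higher and 1 lower of 9 without it, where 23.2% and 23.6% of all genes were called in each direction. These shares were not tested against each other.

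Among other interferon-induced genes 18 of 31 tested were called higher in Enza than in vehicle and 4 lower, where 34.7% and 35.6% of all genes were. In Combine 5 were called higher and 7 lower than in vehicle, where 23.2% and 23.6% of all genes were. PSMB8 had 0.544, 0.138 and 0.545 CPM in Combine and 4.02, 8.78 and 9.66 CPM in Enza, against 0.244, 0.487 and 0.338 CPM in vehicle. CXCL10 had 0.136, 0.0918 and 0.227 CPM in Combine and 1.28, 0.778 and 1.41 CPM in Enza, against 0.877, 2.63 and 0.917 CPM in vehicle. JAK2 had 52.0, 55.1 and 49.6 CPM in Combine and 48.0, 27.3 and 28.8 CPM in Enza, against 19.7, 17.9 and 16.3 CPM in vehicle. Of 10 NF-kB target genes 7 were called higher and 1 lower in Enza against vehicle, and 5 were called lower and none higher in Combine against vehicle. BIRC3, an inhibitor of apoptosis, had 5.30, 5.42 and 4.86 CPM in Combine and 57.1, 48.3 and 91.7 CPM in Enza, against 8.57, 20.98 and 9.07 CPM in vehicle. ONECUT2 had 13.7, 16.0 and 13.3 CPM in Combine and 20.9, 30.3 and 27.0 CPM in Enza, against 17.0, 16.7 and 14.1 CPM in vehicle. Summed luminal epithelial markers were 5192 to 5430 CPM in Combine and 4273 to 4379 CPM in Enza, against 5047 to 5490 CPM in vehicle. These sums hide opposite differences. KLK3 averaged 68.0 CPM in Combine and 296 CPM in Enza, against 1660 CPM in vehicle, while FOLH1 averaged 1747 CPM in Combine and 1404 CPM in Enza, against 902 CPM in vehicle. Summed endothelial markers were 5.90 to 9.55 CPM in Combine and 5.31 to 7.03 CPM in Enza, against 17.2 to 19.9 CPM in vehicle. VWF made up nearly all of this, with 6.57, 9.50 and 5.85 CPM in Combine and 6.18, 6.94 and 5.25 CPM in Enza, against 19.9, 17.0 and 18.6 CPM in vehicle. CD68 had 256 counts in Combine and 3 in Enza, against 479 in vehicle, and PTPRC had no count in Combine or vehicle libraries. The part of these markers in the results was not tested.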

How the data were processed

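Total RNA was extracted with a column kit and sequenced with a standard Illumina preparation, per the labels' protocols. The authors deposited estimated counts per gene (not whole numbers) for LNCaP, Combine and vehicle, and whole-number counts for LAPC4 and Enza. FastQC 0.9.0, Bowtie2 and hg38 are named in the submitters' processing notes, with counter and annotation not given in the sources used here. Estimated counts were rounded. Ensembl IDs were matched to GENCODE 29 symbols (99.5% in LNCaP, 98.7% in LAPC4), and 65.4% of the drug table's symbols matched.

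Genes were filtered with filterByExpr, scaled by TMM and tested with the edgeR 4.0.16 quasi-likelihood test in R 4.3.3 (limma 3.58.1), with Benjamini-Hochberg adjustment over all genes and a threshold of 0.05. The procedure was tested on simulated data. CPM use the scaled library size. Intervals and the floor of 3 counts per library cover counting error only. The 3 drug arms shared 1 fit, and every other comparison used its own groups. Values in every library are given for at most 8 called members per comparison with the largest change, at least 1 CPM in the higher group and no overlap, and for STAT2, IRF1, IRF7 and IRF9; other values shown beside them were picked after they were seen. Alternatives were DESeq2 1.42.0, other scaling, no low-count filter, a replicate block, all groups in 1 fit, and leaving out each library. Same-numbered libraries did not deviate together (correlations of deviations between -0.104 and 0.114), so the numbers were not used as pairs. The members and lists were chosen with earlier results of these data known.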

Additional observations from a re-analysis of the deposited data

Results flagged for a closer look

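The change with OC2 overexpression differed between LAPC4 and LNCaP for 12 described members, by the fitted difference itself (LAPC4 log2 fold change over Vec minus LNCaP log2 fold change over control, edgeR). The difference was positive for LGALS3BP (8.24), IFI35 (7.85), IFI16 (7.65), IFIT3 (5.95), OAS2 (5.93), UBE2L6 (5.70), IFI6 (5.54), IRF1 (2.72) and IRF7 (0.99). It was negative for STAT2 (-0.85), IRF9 (-2.38) and IFI44L (-11.44). IFI44L had no count in LNCaP control, so its fitted value is no bound, and IFI16, OAS2 and UBE2L6 had 7, 18 and 10 counts in all in LNCaP control. OAS2 was too low for a test in either line alone, with 26 counts in OC2 OE against 3 in Vec in LAPC4 and 2 in OC2 OE against 18 in control in LNCaP. IFI16 and UBE2L6 were too low for a test in LNCaP alone and entered the joint fit through LAPC4 OC2 OE, so their fitted differences, like that of OAS2, are descriptions and not tested differences between the lines. Line, medium, R1881 and the size of the OC2 rise cannot be told apart here.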

How the results depend on the processing

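Leaving out 1 library at a time moved some counts by over 1.5 times. Genes called in LNCaP OC2 OE against shCon were 11002 with all libraries and 7077 to 8375 with 1 left out, and in shOC2 against shCon 8969 and 5076 to 7863. Members called higher in shOC2 were 17 with all libraries and 9 to 16 with 1 left out, and 11 with no low-count filter. Members called lower were 8 and 3 to 7 in shOC2, 5 and 3 to 6 in LAPC4 OC2 OE, and 9 and 5 to 9 in Combine against vehicle. Fewer samples entered these fits. STAT2 in Combine against Enza, never called, was -0.07 on the log2 scale, 0.14 without the first Enza library and -0.19 without the second, and the cause was not tested. The other counts stayed within 1.5 times of their value under every alternative run (310 of 321). Of 104 single-gene results 18 changed their call or sign under some alternative, with 42 values losing a call, 5 gaining one and 1 reversed. With a replicate block, 22 members were called higher and 5 lower in LAPC4 OC2 OE and 8 and 17 in LNCaP OC2 OE against control. The counts were 4 and 24 against shCon, and 17 and 7 in shOC2. For Combine against vehicle the block was run only with the Enza libraries left out, and gave 13 and 13. The block and the removal of Enza cannot be told apart in that count. No paired analysis was possible for Enza because its columns carry no replicate numbers. With 2 libraries per LNCaP group, depth limits members with few counts, such as IFI16 and OAS2.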
